A study of Homo sapiens with 6 samples.

Results

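The nuclear genes for the proteins of the mitochondrial ribosome were followed in A172, T98G and U87MG, 3 established human glioblastoma multiforme cell lines, after transfection with a miR-338-5p mimic (pre-miR338-5p) or with a negative control. Members were all genes whose symbol is MRPL with a number, or MRPS with a number and an optional A, B or C, taken from array probe sets annotated with 1 symbol. There were 73 such genes of 18417 measured, 50 of the large subunit and 23 of the small subunit, and all 73 were among the 13812 genes above the brightness filter used for testing. RNA was collected 24 h after transfection and hybridised to 6 arrays, 1 control and 1 mimic array of each line. All groups therefore shared the transfection itself, and the control groups carried a negative control of which no sequence is given. The series was made to look for targets of miR-338-5p. Nothing in the labels says how many cultures stand behind an array, so each p-value measures the spread between the lines' responses or between these arrays.

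Mitochondrial ribosomes translate the few proteins encoded in mitochondrial DNA, all of them hydrophobic subunits of the respiratory chain and ATP synthase. Their RNA is made in the organelle, but every ribosomal protein is encoded in the nucleus, made in the cytosol and imported. Some of these proteins descend from bacterial ribosomal proteins, and others are found only in mitochondria, where they replace rRNA that was lost and anchor the ribosome to the inner membrane.

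The mature hsa-miR-338-5p is shown because it is the agent that separates the groups. Its RefSeq sequence lies at chr17:81125923-81125944 on the minus strand of GRCh38.p14, and the capitals mark the seed, bases 2 to 8.
hsa-miR-338-5p: aACAAUAUccuggugcugagug
A messenger RNA pairs with this seed through the letters AUAUUGU. Target sites in the messages of the members were not examined. The next genes were chosen from earlier results on these same arrays, so they give a scale and are no independent check of the transfection. The phosphatase subunit gene PPP2R5A had a mean log2 difference of -1.57 ± 0.11 (SD, n = 3 lines). NDFIP1 had -0.96 ± 0.01 and RHEB -0.93 ± 0.14. Across all genes, 153 of 13812 differed between mimic and control (1.11%), 44 of them higher (0.319%) and 109 lower (0.789%), at an adjusted p under 0.05 in limma with the cell line as a block and Benjamini-Hochberg adjustment.

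None of the 73 mitoribosomal genes passed this threshold after the mimic. Their mean log2 differences ran from -0.36 to 0.24, with 44 below and 29 above 0, while 47.6% of all genes tested were below 0. The median was -0.0317, beside 0.00677 over all genes tested, and became 0.0210 without the T98G arrays. The lowest adjusted p among them was 0.129 (limma), and 7 had an unadjusted p under 0.05, beside 11.8% of all genes. All values here are log2 RMA expression, so a difference of 1 is a doubling. Since RNA of whole cultures was measured, fewer cells carrying a message and less of it per cell cannot be told apart.

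MRPL10, the protein at the base of the ribosomal stalk, was the single member that differed by at least 0.2 in 1 direction in all 3 lines. It stood at 6.81 in A172 control and 6.45 in A172 mimic, at 7.37 and 6.94 in T98G, and at 7.05 and 6.80 in U87MG. The mimic array was the lower one in each line, while the ranges of the control and mimic arrays overlapped because the lines start from different levels. Its mean difference was -0.35 ± 0.10 (SD, n = 3 lines), with an adjusted p of 0.129 in limma. That p was 0.0383 when the dimmer 50% of genes were left out and 0.0482 when the variance prior followed mean expression, and the gene was called under these settings. MRPL12, which sits on MRPL10 in the stalk, had differences of -0.13, -0.35 and 0.13 in these lines.

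MRPL52, a mitochondria-specific protein of the large subunit, had the lowest mean difference, -0.36 ± 0.40 (SD, n = 3 lines, adjusted p = 0.403 in limma). It read 5.72 and 5.59 in A172 control and mimic, 6.40 and 5.58 in T98G, and 6.43 and 6.30 in U87MG. The T98G pair alone gave -0.83, the largest change of any member in any line and the only one beyond 0.5. MRPS33, a mitochondria-specific small-subunit protein, read 6.65 and 6.54 in A172, 7.47 and 7.03 in T98G, and 7.93 and 7.66 in U87MG. Its mean difference was -0.27 ± 0.17, and the mimic array was again the lower one in every line. MRPL2, a core protein close to the peptidyl transferase centre, differed by -0.09, -0.29 and -0.37 in A172, T98G and U87MG. MRPL33 differed by -0.13, -0.12 and -0.37 and MRPL13 by -0.17, -0.27 and -0.13 in the same order, both being relatives of bacterial large-subunit proteins.

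At the other end stood MRPL45, which lies at the exit of the nascent chain and holds the ribosome to the inner membrane. It read 9.26 and 9.75 in A172 control and mimic, 9.90 and 9.91 in T98G, and 9.65 and 9.87 in U87MG. The mean difference was 0.24 ± 0.23 (SD, n = 3 lines, adjusted p = 0.435 in limma), and nearly all of it came from A172 and U87MG. MRPL39, a mitochondria-specific large-subunit protein, differed by 0.23, 0.15 and 0.16 in A172, T98G and U87MG, with an adjusted p of 0.393. MRPS27, a pentatricopeptide-repeat protein of the small subunit, differed by 0.21, 0.16 and 0.07. MRPL16 was less even, at 0.16, -0.19 and 0.40 in A172, T98G and U87MG, and its mean of 0.12 became -0.0187 without U87MG. MRPS31 differed by 0.31, 0.16 and -0.15, and MRPS22, a gene known from inherited mitochondrial disease, by 0.02, 0.13 and 0.11.

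**Figure D1:**
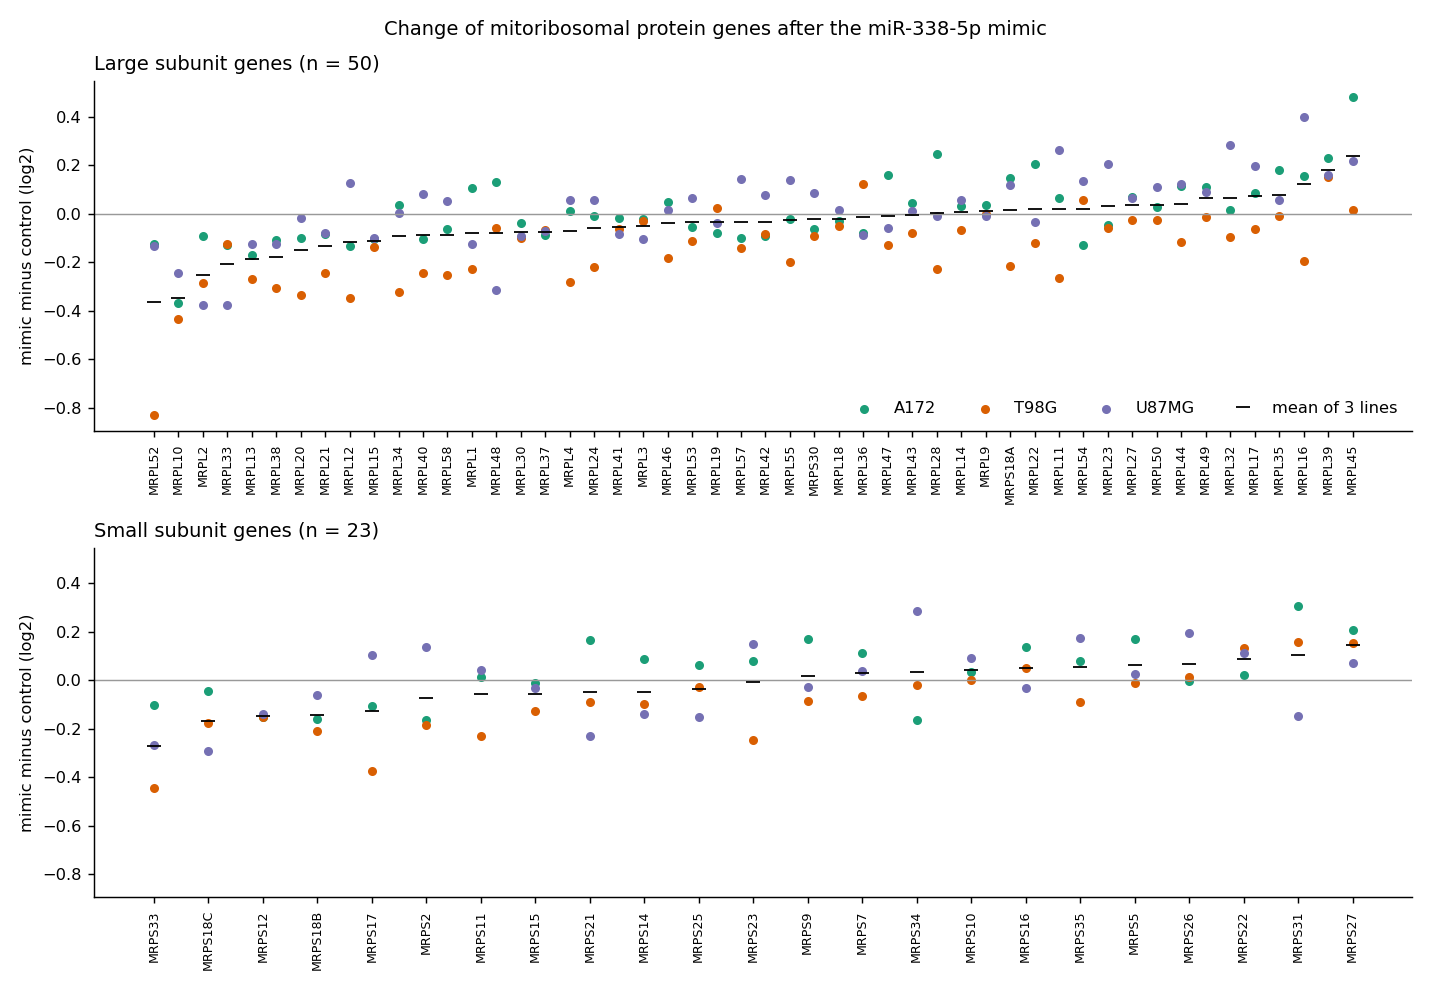
Each point is 1 line's mimic minus control difference (log2) for 1 gene, and the black dash is the mean of the 3 lines; the upper panel holds the 50 large-subunit genes and the lower panel the 23 small-subunit genes, ordered by mean. Most T98G points lie below 0, the T98G point of MRPL52 lies lowest at -0.83, and A172 and U87MG points fall on both sides of 0.

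The sign of the differences was then counted within each line. In T98G, 61 of the 73 differences were below 0, with a median of -0.101, while over all genes 51.5% were below 0 there. In A172, 36 of 73 were below 0 with a median of 0.0109 (48.9% of all genes), and in U87MG 32 of 73 with a median of 0.0256 (45.2% of all genes). Within a line there is 1 array of each kind, so these counts have no replicate check. The T98G difference was the lowest of the 3 for 52 members, or 71.2%, beside 39.4% of all genes. Members below 0 in all 3 lines numbered 18, or 24.7%, beside 15.8% of all genes, and those above 0 in all 3 lines numbered 5, or 6.85%, beside 18.5%.

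Both subunits leaned the same way in T98G. There 44 of 50 large-subunit genes were below 0 with a median of -0.119, and 17 of 23 small-subunit genes with a median of -0.0876. The T98G medians were -0.134 for 30 bacterial-type and -0.0857 for 20 mitochondria-specific large-subunit genes. For the small subunit they were -0.0975 for 13 bacterial-type and -0.0216 for 10 mitochondria-specific genes. These classes are not strictly ancestry, since MRPS18A and MRPS18B count as mitochondria-specific although both derive from bacterial S18. The cytosolic ribosomal protein and respiratory chain families also had T98G medians below 0. The 62 cytosolic ribosomal protein genes had a T98G median of -0.0981 and the 71 nuclear genes for respiratory chain and ATP synthase subunits -0.147, with 52 and 67 genes below 0. In A172 those families had medians of -0.0546 and -0.0347, and in U87MG 0.0144 and -0.0404. None of the genes in either family passed the threshold for mimic minus control in limma, and 4 and 5 of them had an unadjusted p under 0.05. Among genes that act with the mitoribosome, 25 for assembly and rRNA modification had a T98G median of -0.0330, with 14 below 0. The 15 translation factors had -0.0520 (10 below 0) and 10 genes for mitochondrial DNA transcription and replication -0.0871 (7 below 0). For 19 aminoacyl-tRNA synthetase and amidotransferase genes it was 0.00895, with 7 below 0. No difference between these families and lists was tested.

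**Figure D2:**
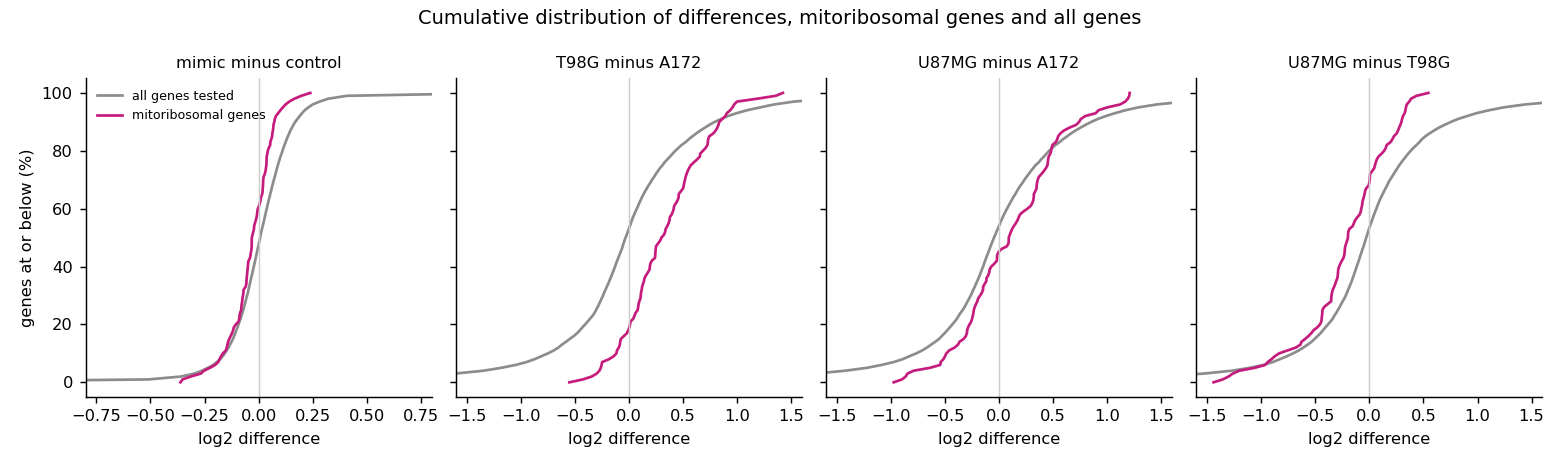
Each panel gives, for 1 comparison, the percentage of genes (vertical axis) at or below a log2 difference (horizontal axis; its range is narrower for mimic minus control), for the 73 mitoribosomal genes and for all 13812 genes tested. For mimic minus control the medians are -0.0317 and 0.00677, and the curves are close in their lower part and separate in their upper part. At quantile 0.1 the values are -0.165 and -0.157, and at quantile 0.9 they are 0.0722 and 0.169. The mitoribosomal curve is shifted to the right for T98G minus A172, where the medians are 0.301 and -0.0306.

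The lines themselves differed far more than the treatment groups did. A line's level is the mean of its control and mimic arrays, and contrasts between lines keep the treatment group as a term in the same limma fit. The 3 contrasts share arrays pairwise and are not independent of each other. About as many genes differed as did not over the whole array: 50.5% for T98G against A172 (25.4% higher, 25.1% lower), 54.2% for U87MG against A172 (26.9% higher, 27.3% lower) and 47.1% for U87MG against T98G (23.5% higher, 23.6% lower). A call of 1 gene is thus common in these contrasts, and the balance of directions among the members is what can be read against this background.

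Most of the members that differed between T98G and A172 were higher in T98G. Of the 73, 35 were higher and 3 were lower at an adjusted p under 0.05, and the median difference was 0.301 beside -0.0306 over all genes. Without T98G control, 25 members were called in all. MRPL40, a mitochondria-specific large-subunit gene, read 7.07 and 6.96 in A172 control and mimic, 8.56 and 8.31 in T98G, and 7.54 and 7.62 in U87MG. The lines did not overlap, and T98G exceeded A172 by 1.42 ± 0.11 (SE), a 2.68-fold difference with an adjusted p of 7.79e-05 in limma. MRPL21 read 8.36 and 8.28 in A172, 9.78 and 9.53 in T98G, and 9.47 and 9.39 in U87MG, so that A172 was the low line, 1.33 ± 0.09 below T98G and 1.11 ± 0.09 below U87MG. MRPS21, the relative of a bacterial small-subunit protein, read 9.11 and 9.28 in A172, 10.24 and 10.15 in T98G, and 8.99 and 8.76 in U87MG. Here T98G was the high line, 1.00 ± 0.12 above A172 and 1.32 ± 0.12 above U87MG, while A172 and U87MG differed by -0.32 with an adjusted p of 0.0578. MRPS15 read 9.76 and 9.75 in A172 and between 10.66 and 10.78 on the other 4 arrays, a T98G excess over A172 of 0.97 ± 0.09.

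The 3 members lower in T98G than in A172 were MRPL50, MRPL54 and MRPL9. MRPL50 read 8.64 and 8.67 in A172, 8.12 and 8.09 in T98G, and 8.38 and 8.49 in U87MG, a difference of -0.55 ± 0.09 (SE, adjusted p = 0.00244 in limma). MRPL54 differed by -0.38 ± 0.10 and MRPL9 by -0.30 ± 0.09. Both of the latter lost their calls in several fits that left out 1 array: MRPL54 without A172 control (adjusted p = 0.182), T98G control (0.0895) or T98G mimic (0.0545), and MRPL9 without any one of the 4 arrays, at adjusted p between 0.0927 and 0.143. MRPL9 also lost it when arrays were centred on their medians (adjusted p = 0.0693).

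By subunit, the counts in this contrast were as follows. Of the 23 small-subunit genes, 15 were higher in T98G than in A172 and none was lower, with a median of 0.413; of the 50 large-subunit genes, 20 were higher and 3 lower, with a median of 0.198. By the same classes, 12 of 30 bacterial-type and 8 of 20 mitochondria-specific large-subunit genes were higher, and 9 of 13 and 6 of 10 small-subunit genes. Against T98G, U87MG was lower for 14 of 23 small-subunit genes and for 14 of 50 large-subunit genes, with medians of -0.338 and -0.143. No difference between the subunits was tested. MRPS12, which lies at the decoding centre, was 0.38 ± 0.09 higher in T98G than in A172 and 0.29 ± 0.09 lower in U87MG than in T98G, and its change with the mimic was nearly identical in all lines at -0.15 ± 0.01 (SD, n = 3 lines, adjusted p = 0.487 in limma). MRPS12 was picked out here after its values were seen.

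U87MG went both ways against A172. Of the 73 members, 28 were higher and 13 lower, with a median of 0.0896 beside -0.0474 over all genes; with quantile normalization repeated the split was 28 higher and 21 lower. The median was 0.148 with arrays centred on their medians and 0.0369 without U87MG mimic, and 26 members were called in all without A172 control. MRPS31, a mitochondria-specific small-subunit gene, read 6.42 and 6.73 in A172, 7.31 and 7.46 in T98G, and 7.85 and 7.71 in U87MG, so U87MG exceeded A172 by 1.21 ± 0.12 (SE). MRPS33 exceeded it by 1.20 ± 0.11. MRPL20 read 8.38 and 8.28 in A172 against 9.41 and 9.07 in T98G and 9.52 and 9.50 in U87MG, a U87MG excess of 1.18 ± 0.11, and A172 was the low line for each of these genes. On the other side, MRPL28 read 7.94 and 8.18 in A172, 8.47 and 8.25 in T98G, and 7.09 and 7.08 in U87MG, a difference of -0.97 ± 0.13 from A172 (adjusted p = 0.00082 in limma). MRPS26 differed by -0.86 ± 0.10 and MRPL48, a protein of the central protuberance, by -0.78 ± 0.12.

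Against T98G, U87MG was lower for 28 members and higher for 5, with a median of -0.197 beside -0.0284 over all genes. After cyclic loess the split was 26 lower and 10 higher, and the members called in all numbered 15 without U87MG control, 19 without T98G control and 19 without U87MG mimic. MRPS17, which keeps its bacterial place in the body of the small subunit, read 7.51 and 7.14 in T98G, 5.83 and 5.94 in U87MG, and 6.80 and 6.70 in A172. The lines did not overlap, and the difference of U87MG from T98G was -1.44 ± 0.13 (SE), a 2.71-fold lower level with an adjusted p of 0.000162 in limma. MRPS21, MRPL28 and MRPS26 followed at -1.32 ± 0.12, -1.28 ± 0.13 and -1.19 ± 0.10. The 5 genes higher in U87MG were MRPS33 (0.55 ± 0.11), MRPS31 (0.39 ± 0.12), MRPS18A (0.34 ± 0.12), MRPL3 (0.34 ± 0.09) and MRPL50 (0.33 ± 0.09). The calls of MRPS31, MRPS18A and MRPL3 were each lost in 3 or 4 of the fits without 1 array, with adjusted p from 0.0637 to 0.347. MRPS31 and MRPS18A also lost theirs with no filter on dim genes (adjusted p = 0.0589 and 0.0751 in limma).

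**Figure D3:**
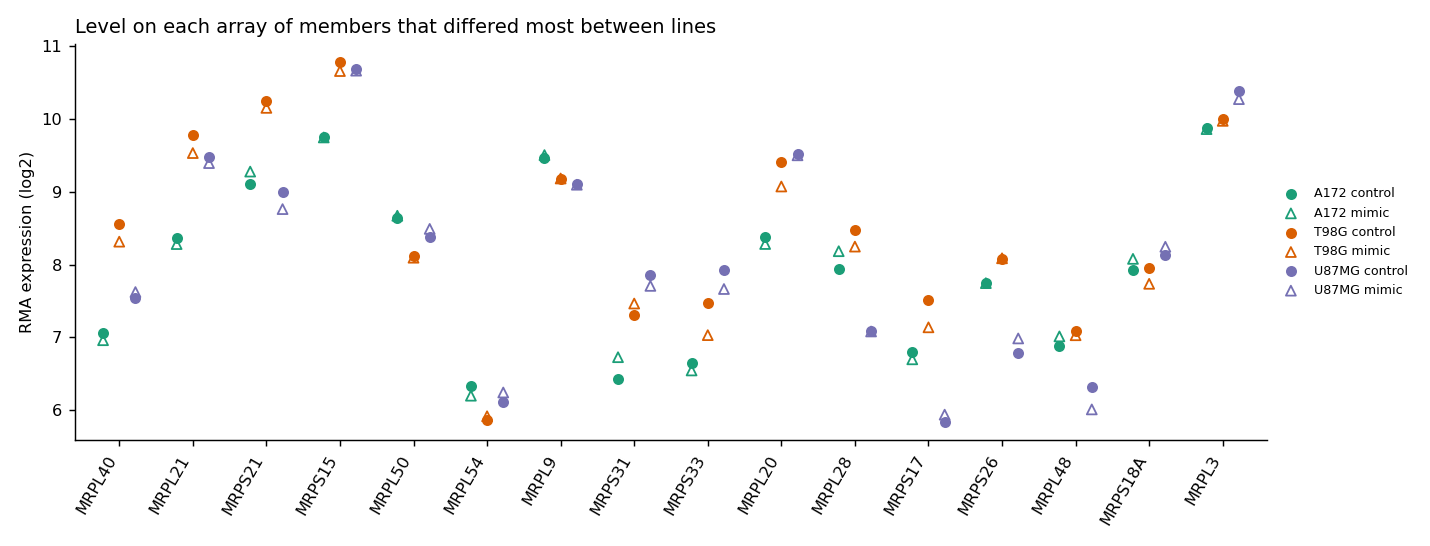
Log2 RMA expression (vertical axis) on each of the 6 arrays for the genes with the largest called line differences; colours are lines, filled circles control arrays and open triangles mimic arrays. The gap between control and mimic within a line, beside the distance between lines, varies by gene. It is small for MRPL40, at 7.07 and 6.96 in A172 and 8.56 and 8.31 in T98G. For MRPS18A the ranges overlap, at 7.93 and 8.08 in A172 and 7.95 and 7.74 in T98G. Heights of different genes come from different probes and are not comparable.

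Counted by line, 43 members had their highest mean level in T98G, beside 31.0% of all genes, and 37 had their lowest in A172, beside 31.8%. T98G was above both other lines at an adjusted p under 0.05 in both contrasts for 17 members (12.1% of all genes) and below both for 1, MRPL50 (11.6%). A172 was below both for 22 (15.2%) and above both for 1, MRPL9 (14.5%). U87MG was above both for 3, MRPL3, MRPS31 and MRPS33 (13.6%), and below both for 10 (12.6%). For 15 members no contrast between lines passed the threshold, beside 27.8% of all genes; among them were MRPL4, MRPL23, MRPS16 and MRPS25, named here as examples after their values were seen. On the same U87MG arrays MRPS33 stood above T98G and MRPS17 below it.

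By mean level, the paralogs derived from bacterial S18 put the lines in 3 different orders, which the tests do not establish. U87MG against T98G for MRPS18C (adjusted p = 0.372 in limma) and U87MG against A172 for MRPS18B (0.175) were not called. MRPS18C, the small-subunit copy in the bacterial position, read 5.09 and 5.05 in A172, 5.65 and 5.48 in T98G, and 5.83 and 5.54 in U87MG, with A172 below T98G by 0.50 ± 0.10 (SE) and below U87MG by 0.62 ± 0.10. MRPS18B, the second small-subunit copy, read 8.21 and 8.05 in A172, 8.65 and 8.44 in T98G, and 7.996 and 7.94 in U87MG, with T98G above A172 by 0.42 ± 0.09 and above U87MG by 0.58 ± 0.09. MRPS18A, which sits in the large subunit, read 7.93 and 8.08 in A172, 7.95 and 7.74 in T98G, and 8.12 and 8.24 in U87MG. Its single called contrast was U87MG against T98G, with an adjusted p of 0.0498 in limma, a call lost with no filter on dim genes. The small-subunit copies had negative mean differences with the mimic, -0.17 for MRPS18C and -0.14 for MRPS18B, and MRPS18A had 0.02; none passed the threshold.

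The cytosolic ribosomal protein and respiratory chain families were set beside the members in the contrasts between lines. Of the 62 cytosolic ribosomal protein genes, 30 were higher and 1 lower in T98G than in A172, 25 higher and 3 lower in U87MG than in A172, and 7 higher and 11 lower in U87MG than in T98G, with medians of 0.271, 0.219 and -0.0257. Of the 71 respiratory chain and ATP synthase genes, the counts were 28 higher and 7 lower, 32 higher and 4 lower, and 16 higher and 14 lower, with medians of 0.164, 0.249 and -0.00324. The corresponding medians of the mitoribosomal genes were 0.301, 0.0896 and -0.197; whether the families differ was not tested.

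Markers of other cell types differed between the lines too, and their part in the line differences was not tested. On the log2 scale the summed level of the 6 epithelial markers (EPCAM, CDH1, KRT8, KRT18, KRT5 and CLDN4) was 11.66 and 11.68 on the A172 arrays, and ran from 9.51 to 9.70 in T98G and 8.84 to 8.99 in U87MG. CDH1 and KRT5 were below the filter; the other 4 were lower in T98G than in A172, and KRT8, KRT18 and CLDN4 were lower in U87MG too. EPCAM was 1.01 higher in U87MG than in T98G. The neuronal markers summed to 7.55 and 7.65 in A172, 7.06 and 7.17 in T98G, and 8.45 and 8.60 in U87MG, with 4 of 6 above the filter and STMN2 below it. Of these 4, 1 was higher and 3 were lower in U87MG than in A172 at an adjusted p under 0.05 in limma. In T98G against A172, 1 was higher and 2 were lower. SNAP25 was the 1 higher in U87MG, by 3.29, and SYT1 was -2.18 from A172 in T98G. The endothelial markers summed to 7.06 and 7.10 in A172, 6.17 and 6.27 in T98G, and 6.96 and 6.99 in U87MG, with 2 of 5 above the filter; TEK was -2.26 from A172 in T98G and -1.99 in U87MG, and PECAM1, VWF and KDR were below the filter. The leukocyte markers summed to 6.36 and 6.43 in A172, 6.12 and 6.17 in T98G, and 5.89 and 5.94 in U87MG. CD14 and ITGAM were above the filter, with line means from 4.05 to 4.57 and from 4.42 to 4.82, and PTPRC, CD3E and LYZ were below it.

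The glioma and astroglial markers had 6 of 8 above the filter, with S100B and AQP4 below it. VIM and CD44 had line means from 11.90 to 12.63 and from 11.51 to 11.88. GFAP stood between 5.07 and 5.37, and SOX2 was at 4.63 in A172 and -0.43 from it in both other lines, near the filter at 4.28. The list summed to 13.05 and 13.09 in A172, 12.85 and 12.89 in T98G, and 13.31 and 13.35 in U87MG. NES was -2.02 from A172 in T98G and -1.71 in U87MG, and SOX9 was -0.81 from T98G in U87MG, each at an adjusted p under 0.05.

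Genes that act with the mitoribosome were examined as lists of known function. Among 4 ribosomal proteins with other kinds of names, DAP3, PTCD3, CHCHD1 and GADD45GIP1, none passed for mimic minus control in limma and none had an unadjusted p under 0.05. DAP3, a GTP-binding protein of the small subunit, read 8.49 and 8.40 in A172, 8.53 and 8.39 in T98G, and 7.46 and 7.69 in U87MG, a U87MG difference of -0.87 ± 0.12 (SE) from A172 and -0.88 ± 0.12 from T98G. Of 25 genes for ribosome assembly and rRNA modification, none passed after the mimic (2 at an unadjusted p under 0.05). Of these, 14 were higher and 1 lower in T98G than in A172, and 15 higher and 3 lower in U87MG than in A172. Over all genes tested, 25.4% were higher and 25.1% lower in T98G, and 26.9% higher and 27.3% lower in U87MG. NGRN, which is needed for the large mitochondrial rRNA, had differences of 0.76, 0.37 and 0.41 in A172, T98G and U87MG and an adjusted p of 0.0845 in limma, and YBEY, an rRNA-processing endonuclease, had a mean of 0.25.

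Of 15 mitochondrial translation factors, none passed after the mimic in limma (1 at an unadjusted p under 0.05). Against A172, 9 were higher and 2 lower in T98G, and 9 higher and 0 lower in U87MG. The release factor MTRF1L had a mean difference of 0.24 and the rescue factor MTRFR -0.16. Among 19 mitochondrial aminoacyl-tRNA synthetase and amidotransferase genes, which charge the tRNAs that the ribosome uses, 16 had positive mean differences with the mimic. The median of the 19 was 0.107. Over all genes tested, 7232 of 13812 were positive, with a median of 0.00677. None of the 19 passed, and 1 had an unadjusted p under 0.05. The amidotransferase subunits GATC, GATB and QRSL1 had the highest means, 0.33, 0.27 and 0.22. Against A172, 9 of the 19 were higher and none lower in T98G, and 8 were higher and 3 lower in U87MG. Of 10 genes for transcription and replication of mitochondrial DNA, none passed after the mimic (1 at an unadjusted p under 0.05). Against A172, 7 of them were higher and 0 lower in T98G, and 5 were higher and 1 lower in U87MG. MTERF1 had a mean difference of 0.25 with the mimic and TFAM, the packaging and initiation factor, -0.11.

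Among 9 regulators of nuclear genes for mitochondria, 1 passed after the mimic. GABPA, the DNA-binding subunit of nuclear respiratory factor 2 and a member of the ETS family, read 7.90 and 8.66 in A172 control and mimic, 7.85 and 8.44 in T98G, and 7.65 and 8.42 in U87MG. All 3 mimic arrays were above all 3 control arrays. It rose by 0.71 ± 0.10 (SD, n = 3 lines, adjusted p = 0.0179 in limma). GABPA is the third gene above the brightness filter from MRPL39 on 1 side, and the mean difference of MRPL39 was 0.18. NRF1 and YY1 had mean differences of 0.11 each and PPARGC1B -0.19, and none of these passed. MYC was 1.48 ± 0.15 (SE) higher in T98G than in A172 and 0.68 ± 0.15 lower in U87MG than in T98G.

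GABPA, NRF1 and YY1 are known to bind promoters of genes for mitochondrial proteins, so the members' promoters were searched for 1 short core of each: CCGGAAGT for ETS factors, GCATGCGC for NRF1 and AAGATGGC for YY1, on both strands. The windows ran from 250 bases before to 50 after the RefSeq start site (GRCh38.p14), and 66 of the 73 members had one. The YY1 core was present in 18 of 66 (27.27%), beside 4.991% of 10920 promoters of genes tested and 3.032% of all 27305 promoters. The ETS core was present in 10 (15.15%, beside 7.848% and 4.435%), and the NRF1 core in 6 (9.091%, beside 4.973% and 3.274%). The searches were independent of each other, and GCATGCGC and its complement GCGCATGC can overlap. In all, 26 members (39.39%) held at least 1 core, beside 16.28% of genes tested. Many of the YY1 cores lay just after the start site, and their letters contain ATG, the start codon. The following stretches of 48 bases upstream of the start site are examples that carry an ETS or NRF1 core, in capitals, in members described above. No stretch with the YY1 core is shown.
MRPL3 (ETS core, chr3:131502976-131503023, minus strand): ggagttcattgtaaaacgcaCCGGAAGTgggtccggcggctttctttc
MRPL20 (ETS core, chr1:1407310-1407357, minus strand): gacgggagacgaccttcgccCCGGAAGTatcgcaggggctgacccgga
MRPS22 (ETS core on the other strand, chr3:139343894-139343941, plus strand): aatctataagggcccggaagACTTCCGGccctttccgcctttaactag
MRPL52 (NRF1 core, chr14:22829692-22829739, plus strand): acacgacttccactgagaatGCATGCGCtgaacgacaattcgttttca
MRPS18C (NRF1 core on the other strand, chr4:83455902-83455949, plus strand): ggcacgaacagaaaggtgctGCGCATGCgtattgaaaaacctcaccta
Counted in bases from the start site, the first core of each window begins at -32, -44, -80, -175 and -136 in this order. The windows of MRPL20 and MRPS22 held 2 cores each and that of MRPL52 held 4, counting all cores on both strands. A match describes letters in a window and is not a binding site. The 10 members with the ETS core had a median mimic difference of -0.0216 and the 56 without it -0.0246. The 6 members with the NRF1 core had a median of -0.0618 beside -0.0246 for the other 60, and the 18 with the YY1 core -0.0123 beside -0.0322 for the other 48.

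Line differences of the members were then set beside those of their neighbours on the chromosome. For each member the 3 nearest genes on either side were taken from the RefSeq order, among non-member genes above the brightness filter. The median of these 6 was set beside the member's own difference. Across the 73 members Pearson's r was 0.593 and Spearman's rho 0.541 for T98G minus A172, 0.683 and 0.678 for U87MG minus A172, and 0.543 and 0.602 for U87MG minus T98G. The neighbour medians had a median of -0.0713, -0.0832 and -0.0569 over the members, beside 0.301, 0.0896 and -0.197 for the members themselves. The sign was shared by 42, 52 and 47 of the 73 pairs, and no share over all genes is given to set beside these counts. The same measure over 13800 genes, with members kept among the neighbours, gave r of 0.267, 0.334 and 0.326 and rho of 0.321, 0.399 and 0.389. These are correlations across genes measured on the same 6 arrays, and genes are not independent replicates. For MRPL40, all 6 neighbours were also higher in T98G than in A172, with a median of 0.90 beside its own 1.42. For MRPL28 and MRPL48, all 6 neighbours shared the sign of the U87MG difference from A172, with medians of -0.47 and -0.74 beside -0.97 and -0.78. MRPS17 likewise had 6 of 6 neighbours on its side against T98G, with a median of -0.29 beside -1.44. Other members stood away from their neighbours. MRPS21 was 1.00 higher in T98G than in A172 while none of its 6 neighbours was higher and their median was -0.28, and MRPS26 was -0.86 from A172 in U87MG beside a neighbour median of -0.08.

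**Figure D4:**
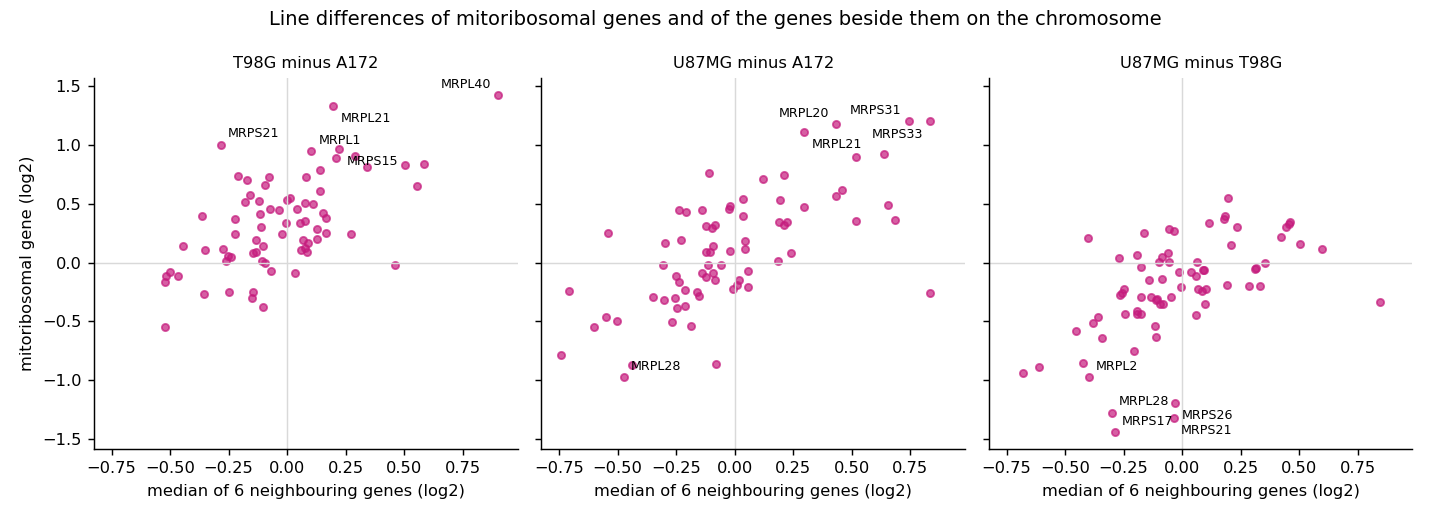
For each of the 73 members the line difference (log2, vertical axis) is set against the median line difference of its neighbours (log2, horizontal axis). The neighbours are the 3 nearest genes on each side that are above the brightness filter and are not members. There is 1 panel for each contrast, and the 5 members with the largest differences are named in each. Points rise from left to right in all 3 panels, with r of 0.593, 0.683 and 0.543, and MRPS21 in the left panel is a member that lies away from its neighbours, at 1.00 beside -0.28.

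Some members share a promoter region with another gene. MRPL46 and MRPS11, 1 large-subunit and 1 small-subunit gene, start 320 bases apart and point away from each other. MRPL46 read 8.71 and 8.75 in A172, 9.60 and 9.42 in T98G, and 9.47 and 9.48 in U87MG; MRPS11 read 9.29 and 9.30 in A172, 10.02 and 9.79 in T98G, and 9.59 and 9.64 in U87MG. Both were higher in T98G than in A172, by 0.78 ± 0.10 and 0.61 ± 0.10 (SE), and in U87MG than in A172, by 0.75 ± 0.10 and 0.32 ± 0.10. MRPS12 shares such a region with SARS2, the mitochondrial seryl-tRNA synthetase gene, with start sites 181 bases apart, and MRPL49 shares one with FAU, with start sites 49 bases apart. These pairs are examples named for role and position after values were seen. Other members also start close to a gene on the other strand, such as MRPL27 and EME1 at 45 bases apart. Of the members measured by several probe sets, MRPL20 and MRPS18B had copies with identical values, while MRPL36 did not: the brighter set put T98G 0.19 above A172 and the other 1.16 above it, so its level between lines is uncertain.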

How the data were processed

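RNA was hybridised to Affymetrix Human Gene 1.0 ST arrays, 1 control and 1 mimic array of each line. The authors deposited log2 values made by RMA (background correction, quantile normalization and probe summary), with oligo in R 3.0.1 per the submitters' processing notes. The labels name no genome build and no batch. No other sample columns were present. Of 33297 probe sets, 19460 carried 1 symbol, 1754 several and 12083 none; symbols were updated through gene identifiers for 19429 (RefSeq, GRCh38.p14). The brightest probe set stood for each gene, and genes in the lowest 25% by mean (log2 level up to 4.28) were left out. MRPL51, MRPS6, MRPS24 and MRPS28 share probe sets with another symbol and are not analysed here.

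The main fit was limma 3.58.1 in R 4.3.3 (lmFit, eBayes) on all 6 arrays with line and treatment as additive terms, 2 residual degrees of freedom and 6.56 in all, two-sided, with Benjamini-Hochberg adjustment over 13812 genes at 0.05; it was tested on simulated data. The number of arrays limits the precision. The line pairs the arrays by design. Deviations from group means correlated at 0.846, 0.809 and 0.834 within A172, T98G and U87MG. Between arrays of different lines and different groups they correlated at most at -0.362. Centring on group means itself pushes correlations between lines below 0, so the contrast of signs is not a test of the pairing. Named were the 6 highest and lowest members by mean mimic difference, any member at 0.2 or more in 1 direction in all lines, the 4 highest and lowest called members in each line contrast, the MRPS18 paralogs and, in each list, called genes and the 2 of smallest p. The part of this rule on the brightest and dimmest members was not used, because levels of different probe sets are not comparable. MRPL12, MRPS12, MRPL46, MRPS11, MRPL49, MRPL36, DAP3, GATB, MYC, NRF1 and YY1 were added for their role, position or probe sets after values were seen. The members and lists were chosen with earlier results of these data known, and the neighbour and promoter comparisons after seeing the data. Alternatives covered the filter, normalization, variance prior, probe set rule, model terms and leaving out lines or arrays.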

Additional observations from a re-analysis of the deposited data

How the results depend on the processing

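With 1 array per line and treatment, the response to the mimic is judged from the spread over 3 lines, and a change in 1 line alone cannot be tested. Mimic minus control gave 0 called members, and 1 (MRPL10) with the lowest 50% of genes left out or with a trend in the variance prior. It gave 0 with no filter, with arrays centred on medians, with quantile or cyclic loess normalization repeated, with the mean of a gene's probe sets, and without each line in turn (all genes: 64 without A172, 117 without T98G and 0 without U87MG). With no replicate block, that is without the pairing by line, it gave 0 members and 0 of all genes. The members' median of -0.0317 ran from -0.0479 to 0.0210 over the fits without 1 line and was above 0 without T98G, where all genes had 0.0137; MRPL16 ran from -0.0187 without U87MG to 0.278 without T98G. Leaving out 1 array lowered the called members from 38 to between 25 and 38 for T98G minus A172 (25 without T98G control), from 41 to between 26 and 29 for U87MG minus A172 (26 without A172 control), and from 33 to between 15 and 26 for U87MG minus T98G (15 without U87MG control, 19 without T98G control and 19 without U87MG mimic); these fits hold fewer arrays. The medians then ran from 0.225 to 0.380, 0.0369 to 0.0983 and -0.254 to -0.140. For U87MG minus A172 the median of 0.0896 was 0.148 with arrays centred on medians and 0.0369 without U87MG mimic; the cause was not tested. No median of a line contrast changed sign under any alternative run. Cyclic loess and the fits for the medians were added after seeing the data.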
